A study of Mus musculus with 12 samples.

Results

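Mouse induced pluripotent stem cells (iPSC) were compared with embryonic stem cells (ESC) in the sorted fraction of low mitochondrial membrane potential. The comparison used 6 of the 12 arrays of the study, 3 of iPSC low cells and 3 of ESC low cells, each set numbered 2, 3 and 4. The members were chosen by cell type and fraction alone, and all 25206 probe sets were tested. Both cell types were female, of C57BL/6 background, and were grown without serum or feeder cells in 2iLIF medium on gelatin. Undifferentiated cells of each type were stained with TMRM, a dye that collects in mitochondria according to their membrane potential, and the dim fraction was taken by flow sorting. The other 6 arrays held the bright, high-potential fractions of the same cell types. The labels do not say how the iPSC were made, from which cells, how many lines each cell type stood for, or their passage number. Each sample gave 1 array of total RNA, and no label says that equal numbers came from separate cultures, so that p-values measure only the spread between these samples.

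ESC are derived from the inner cell mass of the blastocyst, and iPSC from body cells returned to that state by forced expression of transcription factors. In 2iLIF medium, inhibitors of MEK and GSK3 together with the cytokine LIF hold both in a naive state that rests on Oct4 (Pou5f1), Sox2, Nanog, Klf4 and Esrrb. Cells of either kind can gain or lose chromosomes in culture. The DNA of these cells was not analysed here.

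Values were log2 RMA levels, in which a difference of 1 is a doubling of signal. A gene was taken as past the threshold where limma's moderated test gave a Benjamini-Hochberg adjusted p under 0.05 over all 25206 probe sets, and as expressed where its mean over the 12 arrays was at least 5. The 6 arrays were close to each other, with correlations of 0.991 to 0.993 within a cell type and 0.989 to 0.992 between them. None of the 15 core pluripotency factors passed the threshold. Their median difference was 0.13, against 0.05 over expressed genes outside chromosomes 5 and 12, and 13 of the 15 lay above 0. In 3 of the 15 all iPSC arrays were above all ESC arrays, and in 1 below. Among expressed genes outside chromosomes 5 and 12 the shares were 14.3% above and 4.46% below, and over all probe sets 8.04% and 7.79%. Nanog was 10.56, 10.54 and 10.50 in ESC and 10.62, 10.57 and 10.66 in iPSC (difference 0.09 ± 0.08, SE), and Sox2 differed by 0.15 ± 0.10. Pou5f1 differed by 0.01 ± 0.11. Xist, the RNA that silences an X chromosome, lay between 3.56 and 3.93 on all 6 arrays, and the 7 Y-linked genes measured lay at or below 2.78. In bulk samples, fewer cells of a type and less RNA per cell cannot be told apart.

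In iPSC low cells 43 probe sets were higher and 57 lower than in ESC low cells, together 0.397% of those tested (higher 0.171%, lower 0.226%). With each array centred on its own median the counts were 42 higher and 37 lower, so the higher share of the calls moved from 43.0% to 53.2%. Fitted on the 6 low-fraction arrays alone, the test left 2 higher and 1 lower. With an intensity trend it gave 63 and 146, and over probe sets with a mean of at least 4 it gave 83 and 171. At an unadjusted p under 0.05 there were 2820 probe sets (11.2%). The lower calls lay mostly on chromosomes 5 and 12. These chromosomes hold 2198 of the 25206 probe sets (8.72%), and 50 of the 57 lower calls (87.7%) but 3 of the 43 higher calls (6.98%) mapped to them. Of 1311 probe sets on chromosome 5, 2 were higher and 23 lower, and of 887 on chromosome 12, 1 was higher and 27 lower. Of 20987 on the other chromosomes, 40 were higher and 5 lower. The remaining 2 lower calls were probe sets with no gene name. The counts depended on single arrays. Leaving out 1 array at a time left 7 to 26 higher and 7 to 29 lower: 7 and 7 without ESC replicate 2, 20 and 20 without ESC replicate 3, 13 and 17 without ESC replicate 4, 9 and 7 without iPSC replicate 2, 26 and 29 without iPSC replicate 3, and 8 and 12 without iPSC replicate 4.

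Chromosome 12 was lower in iPSC as a whole. Among its 346 expressed genes the median difference was −0.31, a level 1.24 times higher in ESC, and 319 of them (92.2%) lay below 0. The 3 ESC low arrays stood at chromosome medians of 0.00, −0.01 and 0.01 relative to their own mean, and the 3 iPSC low arrays at −0.35, −0.30 and −0.32. No iPSC array reached the lowest ESC array. All 3 iPSC arrays were below all 3 ESC arrays for 223 of the 346 genes (64.5%), against 4.46% of the 7488 expressed genes on other chromosomes. The opposite order was seen in 3 of the 346 (0.867%), against 14.3% on other chromosomes and 8.04% of all probe sets (7.79% for lower). Of the 346, 26 (7.51%) passed the threshold as lower and 1 (0.289%) as higher, against 0.0267% and 0.334% on other chromosomes.

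Chromosome 5 was shifted the same way. Its 555 expressed genes had a median difference of −0.26 (1.20 times higher in ESC), and 503 of them (90.6%) lay below 0. Chromosome medians relative to the ESC low mean were −0.02, −0.09 and 0.11 in ESC replicates 2, 3 and 4, and −0.28, −0.27 and −0.25 in iPSC replicates 2, 3 and 4. The cell types did not overlap, but the ESC arrays were spread more widely than on chromosome 12, with ESC replicate 4 on top. The ESC high array numbered 4 also stood above the other ESC high arrays (0.07 against −0.10 and −0.11). Without ESC low replicate 4 the median difference was −0.21, and without ESC low replicate 3 it was −0.31. The 3 iPSC arrays were below the 3 ESC arrays for 286 genes (51.5%) and above them for 4 (0.721%), and 17 genes (3.06%) passed the threshold as lower.

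No other chromosome had a median of this size. The medians of the other autosomes and X lay between 0.01 (chromosome 13) and 0.08 (chromosome 7), with 30.4% to 46.6% of expressed genes below 0. Over all 7488 expressed genes of other chromosomes the median was 0.05 and 35.2% lay below 0. The X chromosome, of which female cells carry a pair, had a median of 0.05.

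**Figure D1:**
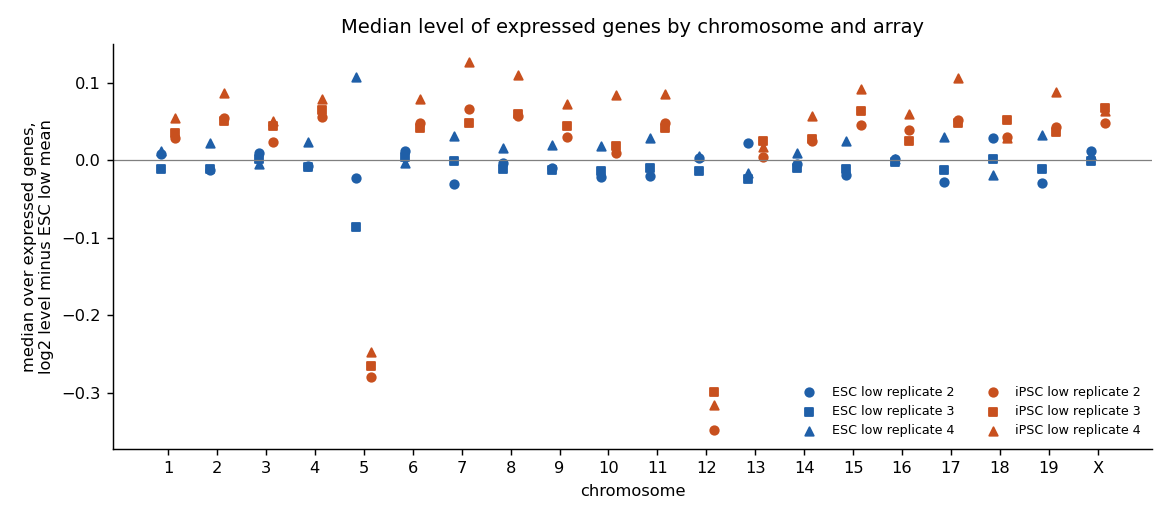
Median over the expressed genes of each chromosome (x axis) of the log2 level minus the mean of the ESC low arrays (y axis), with 1 point for each of the 6 low-fraction arrays. On chromosome 5 the iPSC arrays lie between −0.28 and −0.25 and on chromosome 12 between −0.35 and −0.30, below every ESC array there, while on the other chromosomes the iPSC arrays lie between 0.00 and 0.13.

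The lower level ran along the full length of both chromosomes. Expressed genes were put in order of position and divided into 12 segments of equal gene number. Segment medians ran from −0.36 (segment 5) to −0.17 (segment 11) on chromosome 5, and from −0.46 (segment 4) to −0.25 (segment 7) on chromosome 12. In 12 of 12 segments on each chromosome every iPSC low array lay below every ESC low array. ESC replicate 4 was the highest ESC low array in 11 of the 12 segments of chromosome 5. The differences were mostly modest. On chromosome 5, 407 of 555 genes (73.3%) lay between −0.5 and −0.1 and 54 below −0.5, and on chromosome 12 the numbers were 256 of 346 (74.0%) and 42. Outside these chromosomes 14.4% of expressed genes lay between −0.5 and −0.1.

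**Figure D2:**
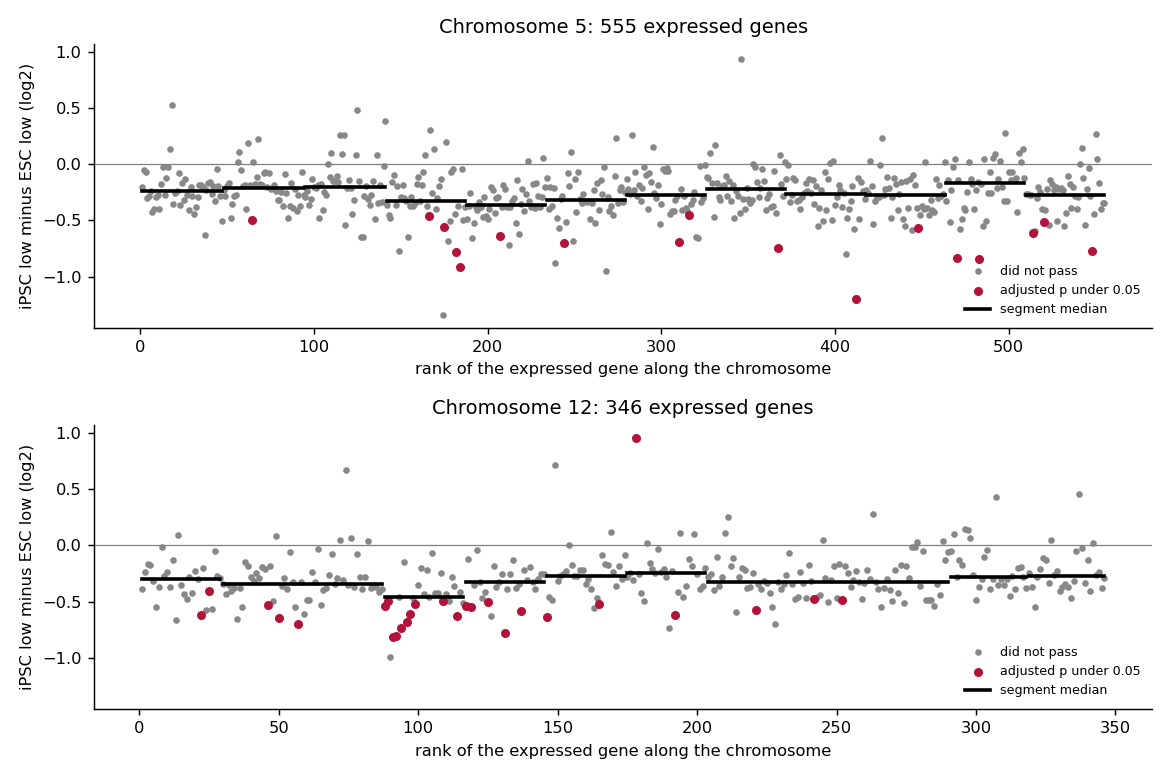
Difference between iPSC low and ESC low cells (log2, y axis) for each expressed gene of chromosomes 5 and 12 in order of position (rank, x axis), with the medians of 12 segments of equal gene number as black bars and genes past the threshold in red. Segment medians stay below 0 along both chromosomes, from −0.36 to −0.17 on chromosome 5 and from −0.46 to −0.25 on chromosome 12.

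The difference was seen in genes with signal and hardly in dim ones. For probe sets with a mean level under 3, the median difference was −0.02 on chromosome 5 and −0.03 on chromosome 12. It was −0.16 and −0.15 for means of 4 to 5, and −0.28 and −0.35 for means of 7 to 8. On other chromosomes the medians of the same level classes stayed between −0.02 and 0.07. A dim probe set reads background in part, and its log2 difference can understate a change in RNA. Whether this affected the medians of the dim classes here was not tested.

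**Figure D3:**
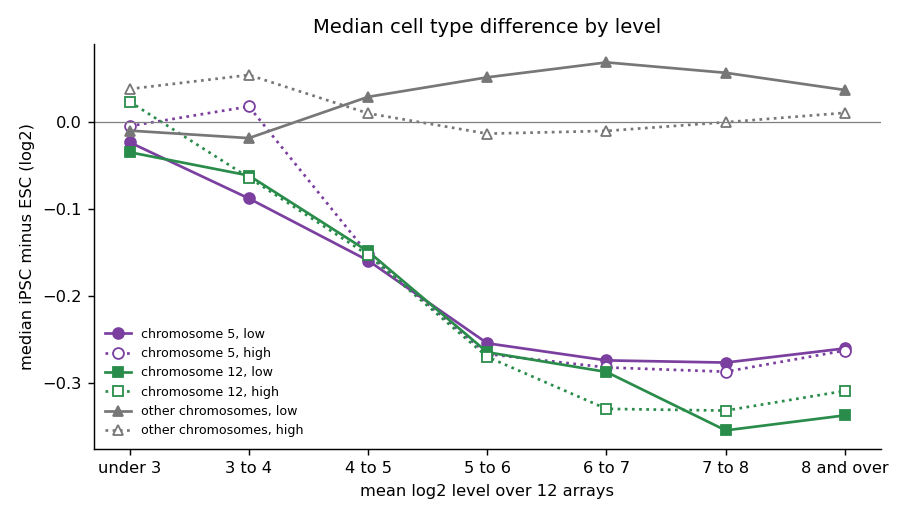
Median difference between iPSC and ESC (log2, y axis) by mean level over 12 arrays (x axis) for chromosome 5, chromosome 12 and the other chromosomes, in the low fraction (filled, solid) and the high fraction (open, dotted). From a mean level of 5 upward, the chromosome 5 medians of the low fraction lie between −0.28 and −0.25 and those of chromosome 12 between −0.35 and −0.26.

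The genes past the threshold on chromosome 12 served many cell functions. Sptssa, a small subunit of serine palmitoyltransferase, the first enzyme of sphingolipid synthesis, read 6.60, 6.67 and 6.33 in ESC and 5.58, 5.93 and 5.63 in iPSC. It fell by 0.82 ± 0.14 (SE, n = 3 and 3, limma adjusted p = 0.0264). Eapp, an E2F-associated phosphoprotein and its neighbour in gene order, fell from 7.88, 7.61 and 7.46 to 6.70, 6.92 and 6.91 (−0.80 ± 0.13, adjusted p = 0.0249). Cfl2, the muscle-type cofilin that severs actin filaments, lies close by and fell by 0.73 ± 0.14 (adjusted p = 0.047). In none of these genes did the cell types overlap, which the naming rule required.

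Dld is the dihydrolipoamide dehydrogenase shared by the pyruvate and 2-oxoglutarate dehydrogenase complexes of mitochondria. It read 8.97, 8.76 and 8.50 in ESC and between 7.92 and 8.20 in iPSC (−0.70 ± 0.13, adjusted p = 0.039). Atxn7l1, a paralogue of the SAGA subunit ataxin-7, fell by 0.81 ± 0.13 (adjusted p = 0.0229), and Tmx1, a thioredoxin-like protein of the endoplasmic reticulum, by 0.78 ± 0.14 (adjusted p = 0.037). Segment 4, from Nubpl to Fancm, held 10 of the lower calls among 29 expressed genes, all 29 of which lay below 0. The 10 were Nubpl, Arhgap5, Sptssa, Eapp, Cfl2, 2700097O09Rik, Srp54c, Prorp, Trappc6b and Prpf39. Srp54c has near-identical copies, so its value is uncertain. Outside the naming rule, and picked after their values were seen, Rrm2 of ribonucleotide reductase went from a mean of 9.33 to 8.80 and Psmc1 of the proteasome from 7.38 to 6.90, both past the threshold.

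The number of chromosome 12 calls was the least stable. It was 27 with all arrays, 0 without ESC low replicate 2, and 1 each without ESC low replicate 3, iPSC low replicate 2 and iPSC low replicate 4. It was 8 without ESC low replicate 4 and 9 without iPSC low replicate 3. The median over its expressed genes moved little, from −0.32 to −0.30 over the same exclusions.

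Smoc1, a secreted modular calcium-binding protein that modulates BMP signalling, was the one gene of chromosome 12 past the threshold in the other direction. It read 6.12, 5.79 and 5.80 in ESC and 6.81, 6.96 and 6.82 in iPSC, a rise of 0.96 ± 0.13 (limma adjusted p = 0.0117). The groups did not overlap, which the naming rule required, and Smoc1 stayed past the threshold in all 6 fits that left out 1 array.

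On chromosome 5 some single genes differed far more than the chromosome as a whole. Rad9b encodes a paralogue of Rad9, a clamp protein of the DNA damage checkpoint, and is known mainly from testis. It read 5.82, 6.09 and 5.73 in ESC and 3.24, 3.77 and 3.81 in iPSC. The fall of 2.27 ± 0.16 had the lowest adjusted p of the named genes (limma, 0.000101), and the highest iPSC array lay far below the lowest ESC array. Rad9b passed in all 6 fits without 1 array and was 1 of 3 genes past the threshold when the 6 arrays were fitted alone, with Pnma5 and Slfn9. Its difference in the high fraction was −1.84. Its paralogue Rad9a, on another chromosome and looked up after Rad9b was seen, differed by −0.01.

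Ift81, a subunit of the intraflagellar transport complex that carries tubulin in cilia, lies 5 measured genes from Rad9b. It read 4.59, 4.58 and 4.48 in ESC and 3.68, 3.21 and 3.58 in iPSC (−1.06 ± 0.11, adjusted p = 0.0051). Gusb, the lysosomal beta-glucuronidase, and Tpst1, which sulphates tyrosines in the Golgi, also lie near each other, with 2 measured genes between. Gusb read 5.98, 5.90 and 6.18 in ESC and 4.67, 5.21 and 4.59 in iPSC (−1.20 ± 0.18, adjusted p = 0.0187). Tpst1 read 5.24, 5.36 and 5.34 against 3.83, 4.42 and 4.10 (−1.20 ± 0.16, adjusted p = 0.0116). These falls were well below the chromosome's own median of −0.26. In each gene all iPSC arrays lay below all ESC arrays, which the naming rule required.

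Hsd17b11, a lipid-droplet 17-beta-hydroxysteroid dehydrogenase, read 5.06, 5.21 and 5.61 in ESC and 3.74, 3.89 and 4.36 in iPSC (−1.30 ± 0.18, adjusted p = 0.014). Commd8, which belongs to the COMMD proteins of endosomal recycling, fell by 0.91 ± 0.15 (adjusted p = 0.024). Ift81 and Tpst1 passed in all 6 fits without 1 array, Hsd17b11 in 4, and Gusb and Commd8 in 2. Among the other lower calls, Stag3, a cohesin subunit of meiosis, went from a mean of 7.53 to 6.69, Polr2b of RNA polymerase II from 9.19 to 8.56 and the GTPase gene Rac1 from 8.40 to 7.79. These last were picked after their values were seen. The count of lower calls on chromosome 5 was 23 with all arrays and 5, 14 and 5 without ESC low replicates 2, 3 and 4. It was 4, 13 and 6 without iPSC low replicates 2, 3 and 4.

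Both genes that rose on chromosome 5 were dim in ESC. Dnajc5g belongs to the cysteine string proteins, co-chaperones with a J domain, and is known mainly from testis. It read 2.44, 2.94 and 3.59 in ESC and 5.01, 5.37 and 5.60 in iPSC, a rise of 2.34 ± 0.26 (limma adjusted p = 0.0051). There was no overlap, which the naming rule required. Dnajc5g passed in all 6 fits without 1 array.

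Oas1d, of the family related to the 2′-5′ oligoadenylate synthetases that answer viral RNA, read 3.04, 2.68 and 3.11 in ESC and 3.64, 3.96 and 4.48 in iPSC (1.08 ± 0.19, adjusted p = 0.0396). It passed in 1 of the 6 such fits. Of the 12 Oas genes measured, all on chromosome 5, Oas1d alone passed the threshold. Oas1a read 4.57, 5.27 and 4.69 in ESC and 5.67, 5.83 and 5.85 in iPSC (0.94 ± 0.20, adjusted p = 0.0718). Oas2 differed the other way (−0.54 ± 0.14, adjusted p = 0.134), and the family median was 0.06. With an intensity trend 2 of the 12 passed, Oas1a as well as Oas1d. The Oas1 genes are near-identical copies, and probe sets may not separate them. None of 29 interferon-response genes passed (median 0.06).

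The promoters of 5 genes with large differences are printed, because 4 of them (Dnajc5g, Hormad2, Pnma5 and Tet3) rose from low signal in ESC and Rad9b fell to low signal in iPSC, and because DNA methylation acts on CpG sites. The 5 were picked after their values were seen, and other genes, such as Spata31d1b and Ano3, also rose from low signal. Each window runs from 250 bases before the RefSeq start site to 50 after it in GRCm38.p6, on the gene's strand, with CG in capitals wherever the pair occurs.
Dnajc5g chr5:31108069-31108368 (plus strand): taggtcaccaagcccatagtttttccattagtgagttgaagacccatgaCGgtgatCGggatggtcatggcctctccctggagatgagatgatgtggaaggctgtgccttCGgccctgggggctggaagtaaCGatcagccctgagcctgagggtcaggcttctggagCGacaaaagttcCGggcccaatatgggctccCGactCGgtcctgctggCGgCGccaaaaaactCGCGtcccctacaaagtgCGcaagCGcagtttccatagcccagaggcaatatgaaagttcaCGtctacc
Pnma5 chrX:73037054-73037353 (minus strand): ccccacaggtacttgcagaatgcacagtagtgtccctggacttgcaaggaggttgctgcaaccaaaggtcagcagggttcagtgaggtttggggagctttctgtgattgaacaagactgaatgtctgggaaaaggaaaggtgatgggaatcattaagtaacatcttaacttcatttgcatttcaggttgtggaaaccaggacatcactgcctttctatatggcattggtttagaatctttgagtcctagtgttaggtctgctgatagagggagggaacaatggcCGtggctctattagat
Hormad2 chr11:4441033-4441332 (minus strand): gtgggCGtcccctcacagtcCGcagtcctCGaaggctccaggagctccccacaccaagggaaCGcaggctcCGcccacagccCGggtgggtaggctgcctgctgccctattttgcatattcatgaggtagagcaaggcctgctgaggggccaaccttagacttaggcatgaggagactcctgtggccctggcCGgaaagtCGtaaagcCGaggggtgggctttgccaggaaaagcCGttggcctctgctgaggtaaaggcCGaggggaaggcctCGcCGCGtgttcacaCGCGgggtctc
Tet3 chr6:83441629-83441928 (minus strand): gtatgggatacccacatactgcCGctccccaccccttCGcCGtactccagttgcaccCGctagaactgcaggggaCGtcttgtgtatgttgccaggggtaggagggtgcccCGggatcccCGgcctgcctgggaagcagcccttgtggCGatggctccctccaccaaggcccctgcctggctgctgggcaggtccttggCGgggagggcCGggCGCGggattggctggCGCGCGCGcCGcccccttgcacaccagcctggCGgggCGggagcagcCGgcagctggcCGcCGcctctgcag
Rad9b chr5:122354156-122354455 (minus strand): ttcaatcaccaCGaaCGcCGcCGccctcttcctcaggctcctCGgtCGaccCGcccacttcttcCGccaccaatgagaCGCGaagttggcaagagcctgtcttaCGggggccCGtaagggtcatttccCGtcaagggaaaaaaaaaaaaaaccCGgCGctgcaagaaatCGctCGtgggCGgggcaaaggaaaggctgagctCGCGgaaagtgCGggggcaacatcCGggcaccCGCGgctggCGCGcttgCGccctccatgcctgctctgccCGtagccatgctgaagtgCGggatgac
Dnajc5g held 15 CG pairs, and 34.6% of 32851 RefSeq windows of this length held at least that many. The like shares were 33.0% for Hormad2 with 16 pairs, 23.1% for Tet3 with 22 and 12.9% for Rad9b with 29, against a median of 7 over all windows. CG reads the same on both strands. Pnma5 held 1, and 94.6% of windows held at least that many. CG-rich and CG-poor windows were thus both present among these genes. Methylation was not measured on these arrays.

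Outside chromosomes 5 and 12 most calls were rises in iPSC. Pnma5, an X-linked gene of the Pnma family that derives from retroelement gag sequence, read 3.62, 3.44 and 3.86 in ESC and 6.13, 5.60 and 5.98 in iPSC. It rose by 2.26 ± 0.30 (limma adjusted p = 0.0118), and by 2.25 in the high fraction. Hormad2, a HORMA-domain protein of unpaired chromosome axes in meiosis, read 3.11, 3.39 and 2.97 in ESC and 4.43, 4.42 and 4.79 in iPSC (1.39 ± 0.16, adjusted p = 0.00558). Its relative Hormad1, looked up after Hormad2 was seen, differed by 0.32. Spata31d1b, of a spermatogenesis-associated family with near-identical copies, rose by 1.22 ± 0.20 (adjusted p = 0.0264). None of the 24 genes listed as germline genes controlled by methylation passed (median 0.05).

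Tet3, a dioxygenase that oxidises 5-methylcytosine and is abundant in the oocyte and zygote, was the one gene past the threshold among 13 DNA methylation and demethylation genes. It read 4.40, 4.37 and 4.92 in ESC and 5.70, 5.82 and 5.88 in iPSC, a rise of 1.23 ± 0.15 (adjusted p = 0.00741) that passed in all 6 fits without 1 array. Tet1 differed by 0.13 ± 0.10 and Tet2 by 0.14 ± 0.19. Dnmt3l, the catalytically inactive partner of the de novo methyltransferases, read 3.68, 4.42 and 4.87 in ESC and 6.54, 5.30 and 6.38 in iPSC. Its difference of 1.75 ± 0.44 was larger than that of Tet3, but the arrays were more scattered and it did not pass (adjusted p = 0.123). Dnmt3a, on chromosome 12, differed by −0.55 ± 0.14 (adjusted p = 0.129) and Uhrf1 by 0.23 ± 0.08. Dnmt1 and Dnmt3b differed by 0.04 ± 0.08 and −0.02 ± 0.15.

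Further rises lay in genes of the membrane, of signalling and of the nucleus. Slfn9, of the Schlafen family, read 6.54, 6.79 and 6.60 in ESC and 7.83, 7.72 and 7.68 in iPSC (1.10 ± 0.12, adjusted p = 0.0051). It passed in all 6 fits without 1 array, although Schlafen genes share sequence. Lncenc1, a long noncoding RNA of naive ESC, read 6.22, 5.83 and 6.55 in ESC and 7.49, 7.31 and 7.61 in iPSC (1.27 ± 0.24, adjusted p = 0.0482) and passed in 0 of the 6. In both genes every iPSC array was above every ESC array, which the naming rule required.

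Slco4a1, an organic anion transporter, rose by 1.16 ± 0.18 (adjusted p = 0.0187), Emp1, an epithelial membrane protein, by 1.03 ± 0.17 (adjusted p = 0.0264) and Dab1, an adaptor of reelin signalling, by 0.97 ± 0.16 (adjusted p = 0.0249). Calr4, a relative of the chaperone calreticulin, rose by 0.98 ± 0.14 (adjusted p = 0.014) and Tbc1d9, of a family of Rab GTPase regulators, by 0.91 ± 0.15 (adjusted p = 0.0249). Lefty1, an antagonist of Nodal, read 6.70, 6.80 and 6.98 in ESC and 7.56, 7.44 and 7.77 in iPSC (0.76 ± 0.11, adjusted p = 0.0171). Its relative Lefty2, looked up after Lefty1 was seen, differed by −0.03 ± 0.44. Lefty1 was the one gene past the threshold among 23 mesoderm and primitive streak genes. Their median was −0.01, and 0.04 without the 5 on chromosomes 5 and 12. Aim2, a sensor of cytosolic DNA picked after its values were seen, also passed, with a mean of 6.92 in ESC and 7.83 in iPSC.

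The falls outside chromosomes 5 and 12 were 5. Cdc42se2, an effector of the GTPase Cdc42, read 7.16, 7.06 and 7.02 in ESC and 6.24, 6.37 and 6.12 in iPSC (−0.84 ± 0.10, limma adjusted p = 0.00581). It was the one of the 5 that passed in all 6 fits without 1 array. Pfkfb3, which makes the fructose 2,6-bisphosphate that speeds glycolysis, read 5.53, 5.61 and 6.26 in ESC and 4.74, 5.03 and 4.75 in iPSC (−0.96 ± 0.17, adjusted p = 0.0402), and passed in 0 of the 6. Gad2, a glutamate decarboxylase, fell by 1.01 ± 0.19 from a dim level (adjusted p = 0.0444), and Arhgap29 by 0.82 ± 0.16 (adjusted p = 0.0498). The fifth was 3010003L21Rik, a long noncoding RNA with means of 4.55 and 3.90, which the naming rule left out as a clone name. Counts outside these chromosomes were 40 higher and 5 lower with all arrays. They were 5 and 1, 17 and 2, and 11 and 1 without ESC low replicates 2, 3 and 4. They were 6 and 1, 24 and 4, and 6 and 3 without iPSC low replicates 2, 3 and 4.

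**Figure D4:**
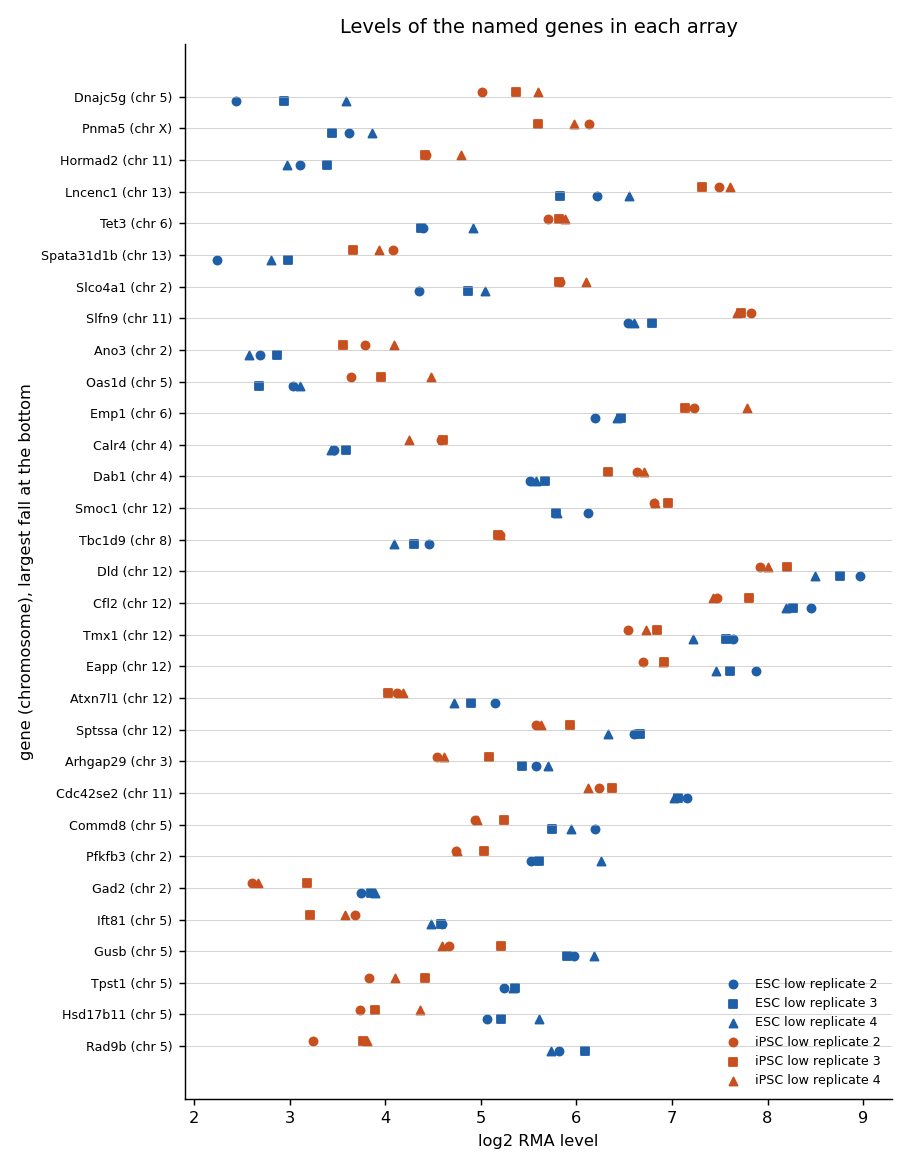
Log2 RMA level (x axis) of the named genes past the threshold (y axis, chromosome in brackets, largest fall at the bottom) in the 3 ESC low (blue) and 3 iPSC low (orange) arrays. In each gene the cell types do not overlap, which the naming rule required, and the widest gaps are those of Rad9b (−2.27), Pnma5 (2.26) and Dnajc5g (2.34).

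None of 22 genes of the naive state passed, and their median difference was 0.10, with 17 above 0. All iPSC arrays were above all ESC arrays in 5 of the 22 and below them in 2. Among expressed genes outside chromosomes 5 and 12 the shares were 14.3% and 4.46%, and over all probe sets 8.04% and 7.79%. The gene with the lowest p was Dppa3, a maternal factor that guards methylation in the early embryo, at 4.90, 5.52 and 4.58 in ESC and 4.08, 3.79 and 3.63 in iPSC (−1.17 ± 0.28, limma adjusted p = 0.106). The 2 lower ones were Dppa3 and Esrrb on chromosome 12 (−0.20 ± 0.09). Among those without overlap on the higher side, Klf2 differed by 0.39 ± 0.13 (adjusted p = 0.239). Klf4 differed by 0.24 ± 0.13 (adjusted p = 0.547). None of 18 formative and primed genes passed (median 0.01). Without the 3 genes of each list on chromosomes 5 and 12, the median was 0.10 for formative and primed genes and 0.11 for naive genes.

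The targets of LIF, STAT3 and ERK signalling had the largest positive median of the 31 lists, 0.24, with none past the threshold. Of the 23, 6 lay below 0, where 35.2% of expressed genes outside chromosomes 5 and 12 did. With an intensity trend 1 of the 23, Spry2, passed. Pim3, a kinase gene induced by STAT3, read 5.44, 5.65 and 5.53 in ESC and 6.07, 5.89 and 6.12 in iPSC (0.49 ± 0.10, adjusted p = 0.064). Spry2, a feedback inhibitor of ERK signalling, differed by 0.46 ± 0.10 (adjusted p = 0.0667). Egr1, an immediate early gene, read 4.36, 5.07 and 4.19 in ESC and 6.70, 4.89 and 6.54 in iPSC (1.50 ± 0.43, adjusted p = 0.178), so that iPSC replicate 3 lay within the ESC values. Spry4 differed by 0.98 ± 0.29 (adjusted p = 0.191).

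The imprinted Dlk1-Dio3 domain of chromosome 12 carries maternally expressed noncoding RNAs whose silencing has been described in some iPSC lines. Of the 8 long genes of the domain, 3 were expressed here (a mean of at least 5), and of 51 microRNA genes 19 reached that level. Meg3, for one, had signal in both cell types. Meg3 read 8.48, 8.63 and 8.83 in ESC and at most 8.31 in iPSC (−0.51 ± 0.12, limma adjusted p = 0.112), and Rian differed by −0.49 ± 0.10 (adjusted p = 0.0534). Mirg differed by −0.48 ± 0.18 (adjusted p = 0.322). The median over the chromosome's expressed genes was −0.31. None of the 8 long genes of the domain passed (median −0.29), nor did any of 51 microRNA genes there (median −0.12, lowest adjusted p 0.219). With an intensity trend in the test 2 of the 8 passed.

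Lists of markers of cells that a pluripotent culture could hold or derive from were measured too. No fibroblast, blood, trophoblast, endoderm or neural marker passed, although some had levels of 5 or more: 2 of 24 fibroblast, 3 of 13 blood, 4 of 13 trophoblast, 3 of 22 endoderm and 2 of 17 neural genes. The mean level over 24 fibroblast genes was 3.47 to 3.49 in ESC low arrays and 3.37 to 3.52 in iPSC low arrays. Their median difference was −0.07, and −0.03 without the 2 on chromosomes 5 and 12. Over 13 blood and macrophage genes the mean level was 3.65 to 3.71 and 3.80 to 3.84, and all 3 iPSC arrays were above all 3 ESC arrays. Cd3e, of the T cell receptor complex, read 5.28, 5.35 and 5.18 in ESC and 5.83, 5.84 and 6.13 in iPSC (0.67 ± 0.14, adjusted p = 0.0607), and Laptm5 differed by 0.66 ± 0.19 (adjusted p = 0.172). The part of this difference in the calls above was not tested. Such an order of the arrays was not particular to blood genes. Mean levels over the trophoblast genes were 3.756 to 3.849 in ESC low and 3.907 to 3.972 in iPSC low arrays. The LIF, STAT3 and ERK list (6.535 to 6.757 and 6.822 to 7.049) and the DNA methylation list had the same order. The neural genes had the opposite one (3.454 to 3.675 and 3.417 to 3.444). The median difference was 0.10 over the trophoblast, 0.02 over the endoderm and −0.11 over the neural genes. Without genes of chromosomes 5 and 12 these medians were 0.155, 0.048 and −0.105. In the neural list 14 of 17 lay below 0. On chromosomes other than 5 and 12, 52.5% of probe sets with a mean under 3 and 54.4% of those from 3 to 4 did. The lowest p of the list was that of Msi1 (−0.65 ± 0.14, adjusted p = 0.0684), which lies on chromosome 5. With an intensity trend in the test Cd3e and Msi1 passed, 1 gene in each of their lists.

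The high fractions, which share no arrays with the low fractions, gave a cell type difference of the same sign for nearly all of these genes. Of the 100 probe sets past the threshold in low cells, 99 had the same sign in high cells and 29 passed the threshold there, against 47 of 25206 (0.186%) overall. Both tests used the same spread, pooled over all 12 arrays, so a probe set with a small spread was favoured in both. The count of 29 is thus not independent of the choice in low cells. The share of equal signs over all probe sets was not counted. Chromosomes 5 and 12, shifted in both fractions, held 50 of the 57 lower and 3 of the 43 higher calls. Samples of equal number and cell type deviated together across fractions, with residual correlations of 0.11 to 0.34. The expressed genes of chromosome 5 had a median of −0.27 in high cells and those of chromosome 12 −0.32, against −0.00 for the other chromosomes. On chromosome 12 the iPSC high arrays stood at −0.27, −0.32 and −0.38 and the ESC high arrays at −0.02, 0.01 and −0.02.

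No probe set showed a difference between fractions in the cell type effect by limma's interaction test at an adjusted p under 0.05, and 1100 (4.36%) had an unadjusted p under 0.05. With samples of equal number and cell type as a random block the counts were 0 and 1605. The lowest adjusted p was 0.895, for Ano3. Ano3, of the anoctamin family, read 2.69, 2.87 and 2.58 in ESC low and 3.79, 3.56 and 4.09 in iPSC low cells (1.10 ± 0.14, adjusted p = 0.0116), and differed by −0.03 in high cells. It was the exception in sign among the 100, and the difference between its effects did not pass.

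**Figure D5:**
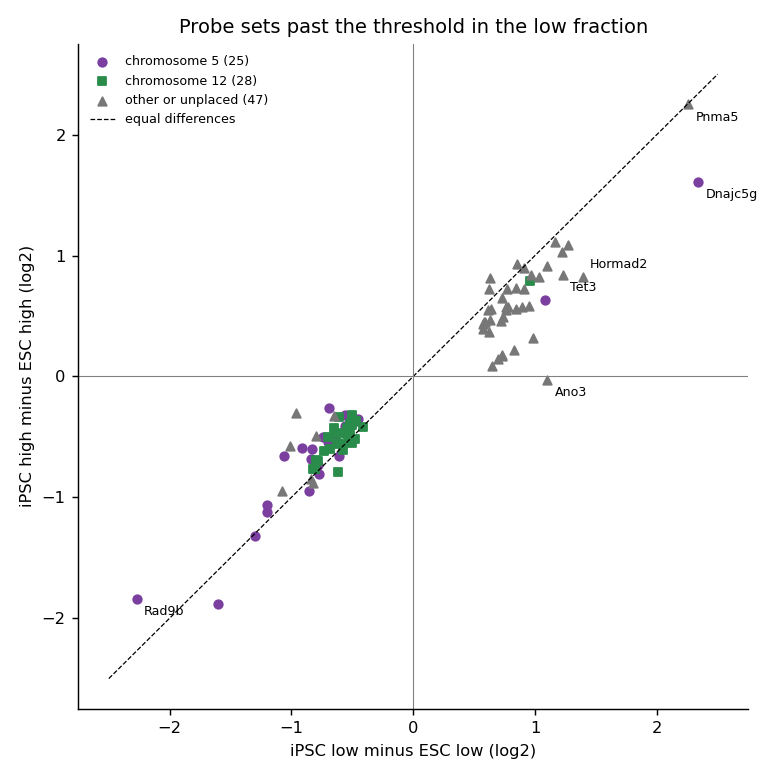
Difference between iPSC and ESC (log2) in the low fraction (x axis) and the high fraction (y axis) for the 100 probe sets past the threshold in the low fraction, by chromosome, with a dashed line where both are equal. All points but Ano3 (1.10 in low and −0.03 in high) have the same sign on both axes, and the points were chosen on the x axis.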

How the data were processed

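RNA of 12 sorted samples was hybridised to 12 Affymetrix arrays, of which 6 form the comparison. The authors' deposited values are log2 levels made by RMA (background correction, quantile normalisation and probe set summary) with affy 1.36.1 in R 2.15.1, per the submitters' processing notes. The sources used here name neither the chip definition nor the genome build. Quantile normalisation gives all arrays nearly the same distribution, so that each difference is relative to the other genes of the array. Of 25206 probe sets, 23185 had 1 gene symbol, 0 several and 2021 none, and all 23185 were placed by gene ID in a RefSeq table of GRCm38.p6, used for names, chromosome, gene order and promoters.

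limma 3.58.1 in R 4.3.3 fitted 1 mean for each of the 4 groups over 12 arrays, with iPSC low minus ESC low as the contrast and Benjamini-Hochberg adjustment over all probe sets. The spread is thus pooled over all groups. Differences are iPSC minus ESC, ± the model's standard error, with 3 arrays per group. An exact permutation test of 3 against 3 cannot go below 0.1 and was not used. The named genes were the largest changes past the threshold without overlap (up to 12 each way on other chromosomes, up to 6 each way on chromosomes 5 and 12), leaving out clone names, all members of the core pluripotency, Dlk1-Dio3, Oas, X and Y lists, the 4 lowest p of other lists described, and 16 fixed genes. The gene lists and their members were chosen with earlier results of these data known. The test was tried on simulated data first. Alternatives were the 6 arrays alone, the replicate number as a block, an intensity trend, median centring, a filter on dim probe sets and leaving out each array. Equal numbers did not pair ESC low with iPSC low arrays (residual correlations −0.07 to 0.13).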

Additional observations from a re-analysis of the deposited data

How the results depend on the processing

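The precision is limited by the number of arrays, 3 in each group. The lower median levels of chromosomes 5 and 12 kept their direction under the alternatives that could move them (median centring, another minimum level and leaving out arrays), from −0.31 to −0.21 and from −0.32 to −0.30 when arrays were left out in turn, while the counts of single genes past the threshold depended on how the spread was estimated. With the 6 low-fraction arrays fitted alone 2 probe sets were higher and 1 lower. By place these were 0 and 1 on chromosome 5, 0 and 0 on chromosome 12, and 2 and 0 on the other chromosomes. An intensity trend in the test gave 146 lower calls, with 60 on chromosome 5, 64 on chromosome 12 and 15 on the others. Testing probe sets with a mean of at least 4, which are fewer, gave 83 higher and 171 lower. Lower calls were then 67 on chromosome 5, 74 on chromosome 12 and 20 on the others, and higher calls 2 on chromosome 12 and 78 on the others. Centring each array on its median gave 37 lower, 14 of them on chromosome 12. With the replicate number as a block, although the numbers did not pair the cell types, 46 were higher and 54 lower, with 9 lower calls on the other chromosomes. A random block for cell type and number gave 45 and 64. Without 1 array the range was 7 to 26 higher and 7 to 29 lower in all, 1 to 2 and 4 to 14 on chromosome 5, 1 and 0 to 9 on chromosome 12, and 5 to 24 and 1 to 4 on the others. The interaction between cell type and fraction gave 0 calls under each of these except the fit on 6 arrays, which holds no high fraction and gives no such test. Except where the alternative's own construction shows it, the cause of these changes in counts was not tested. Of 190 genes followed, 0 changed direction while past the threshold. Of the genes named, Cdc42se2, Dnajc5g, Hormad2, Ift81, Rad9b, Slfn9, Smoc1, Tet3 and Tpst1 passed in all 6 fits without 1 array.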

Other observations

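Both cell types were sorted for low potential, and whether their potentials were equal was not tested. None of 34 complex I genes passed the threshold (median difference 0.04), nor did any of 32 genes of complexes II to V (median 0.07). Of these 32, 26 lay above 0 and 6 below, where 35.2% of expressed genes outside chromosomes 5 and 12 lay below 0. In 0 of the 32 were all iPSC arrays above all ESC arrays, and in 1 below. The shares among expressed genes outside chromosomes 5 and 12 were 14.3% and 4.46%. With an intensity trend in the test 1 of the 32 passed. Among 21 glycolysis genes Pfkfb3 was the one past the threshold, and it fell, while the median of the list was −0.00. Of 23 genes induced in hypoxia, 16 of them expressed, Pfkfb3 again was the one that passed. The median was −0.10, against 0.12 in the high fraction, and −0.05 in the low fraction without the 2 genes on chromosomes 5 and 12. Of the 23, 18 lay below 0, where 35.2% of expressed genes outside these chromosomes did. That share does not match the dimmer members. Outside these chromosomes 54.4% of probe sets with a mean of 3 to 4 and 44.4% of those from 4 to 5 lay below 0. Egln3, one of the genes of chromosome 12, encodes a prolyl hydroxylase that marks HIF for degradation. It read 7.64, 6.79 and 7.80 in ESC and 6.04, 6.87 and 6.36 in iPSC (−0.99 ± 0.27, limma adjusted p = 0.158). ESC replicate 3 thus lay within the iPSC values. Egln1 differed by −0.44 ± 0.10 (adjusted p = 0.0911) with no overlap. The difference between fractions did not pass the threshold for any of these genes.

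In the cell cycle and stress lists, none of 24 mitosis genes (median 0.05), 25 p53 targets (0.05), 25 antioxidant genes (0.07) or 18 clustered histone genes (0.06) passed. Of 51 imprinted genes outside the Dlk1-Dio3 domain none passed (median 0.02), and of 22 genes of the 2-cell-like state none did (−0.04). The same held for 18 antigen presentation genes (0.12), 15 genes that silence retroelements (0.07), 16 Wnt targets (−0.02), 11 ABC transporters (0.15) and 9 genes of X inactivation (0.11). Over all 25206 probe sets the median was 0.00.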
